A study of Mus musculus with 3 samples.

Results

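The angiopoietin and Tie receptor genes were followed in endothelial cells (ECs) of the mouse lung, the cells that line its blood and lymphatic vessels, after melanoma cells had been injected into the tail vein. The group held 6 genes, taken by symbol from the 32285 genes of the deposited annotation: the receptors Tek (the gene of TIE2) and Tie1, the ligands Angpt1 and Angpt2, the receptor phosphatase gene Ptprb (VE-PTP) and the transcription factor gene Foxo1. All 6 were detected in every library. Wild-type C57BL/6 mice, males of 8 to 10 weeks by the methods, received either 100 µl of buffer (PBS) for 6 h, or 200000 B16-F10 cells in 100 µl for 6 h or for 30 h. B16-F10 is a mouse melanoma line that lodges in the lungs when given by this route. No group carried a genetic change. Single cells were released from the lungs with collagenase, sorted as PECAM1+ PTPRC- cells and sequenced by a droplet 3′ method, with 1 library for each of the 3 treatments. By the labels the library of 6 h also contained melanoma cells. Each library pooled mice, 2 per treatment by the labels and 3 by the methods, so no value below has a replicate and no test between treatments was possible. The control was taken at 6 h, so that at 30 h the time after injection and the presence of melanoma cells cannot be told apart.

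Angiopoietins are secreted ligands of the receptor tyrosine kinase TIE2. ANGPT1, made largely by mural and mesenchymal cells around the vessel, activates TIE2 and supports the endothelial barrier, and ANGPT2, made by ECs and stored in their Weibel-Palade bodies, can activate or block the same receptor depending on the setting. TIE1 is a related receptor that does not bind angiopoietins strongly by itself and modulates TIE2, and VE-PTP removes phosphate from TIE2. Active TIE2 signals through PI3-kinase and AKT, which keeps the transcription factor FOXO1 out of the nucleus, and FOXO1 in turn can switch on ANGPT2.

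The 2 receptor genes lie on the same chromosome. The stretches around their start sites are shown as a description, and a link to their mRNA levels was not tested. On the GRCm38 build Tek lies at chr4:94739289-94874976 on the plus strand and Tie1 at chr4:118471191-118490061 on the minus strand. The sequences below are from RefSeq (GRCm38.p6), run from 250 bases before to 50 bases after the start in RefSeq, and are written 5′ to 3′ on the strand of the gene. The Tek stretch is chr4:94739039-94739338 and the Tie1 stretch is chr4:118489800-118490099. RefSeq starts Tie1 further inside the gene than the GENCODE span given above, so most of the Tie1 stretch lies within that span. Capitals mark every match, on either strand, of the ETS core GGAAG, the GATA motif AGATAA, the forkhead motif GTAAACA or the TATA box TATAAA.
Tek: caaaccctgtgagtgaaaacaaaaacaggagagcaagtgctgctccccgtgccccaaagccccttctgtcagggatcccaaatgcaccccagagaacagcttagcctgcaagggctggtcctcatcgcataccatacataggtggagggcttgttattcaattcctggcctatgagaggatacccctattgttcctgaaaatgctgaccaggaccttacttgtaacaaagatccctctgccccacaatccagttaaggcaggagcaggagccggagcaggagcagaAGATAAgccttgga
Tie1: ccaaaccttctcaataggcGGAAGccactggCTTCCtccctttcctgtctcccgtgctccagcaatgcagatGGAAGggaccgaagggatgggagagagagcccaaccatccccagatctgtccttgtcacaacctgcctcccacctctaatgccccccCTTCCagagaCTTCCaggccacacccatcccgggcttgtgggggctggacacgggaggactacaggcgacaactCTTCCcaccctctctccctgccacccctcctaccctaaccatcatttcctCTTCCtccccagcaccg
The Tek stretch held 1 GATA match and no match of the other 3 motifs. The Tie1 stretch held 7 matches of the ETS core, some on the opposite strand as CTTCC, and no match of the others. At least 1 ETS core was present in 71.4% of 32851 RefSeq promoters of the same length and a GATA match in 11.2%, against 3.65% for the forkhead motif and 13.6% for the TATA box. A promoter held a median of 1 ETS core, and 77 promoters (0.234%) held 7 or more. The promoter of Foxo1 (chr3:52268087-52268386) held 1 ETS core and none of the other motifs. A match describes letters in this window and does not say that a factor binds there. The other genes lie at chr15:42424723-42676977 (Angpt1, minus strand), chr8:18690263-18741562 (Angpt2, minus strand), chr10:116275523-116389535 (Ptprb, plus strand) and chr3:52268336-52353221 (Foxo1, plus strand). Angpt2 lies inside Mcph1, which is read from the opposite strand. Whether the counting used strand is not given in the sources used here, so reads of this pair may not be fully separated.

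ECs were barcodes with 1000 to 5000 detected genes, under 20% of unique molecular identifiers (UMIs) from mitochondrial genes and at least 2 UMIs of Pecam1 plus Cdh5, both EC junction genes. This left 11231 barcodes in the control, 10583 at 6 h and 9278 at 30 h, of library totals of 124085451 to 140601123 UMIs, with a median of 7782 to 8676 UMIs per EC. Any pair of libraries shared 22 to 38 EC barcode sequences, at most 0.399% of a library. The 5 pan-endothelial markers summed to 5443 CPM in the control, 5452 CPM at 6 h and 6614 CPM at 30 h, where CPM is the number of UMIs of a gene in every 1000000 UMIs summed. UMIs of other cell types were also present in EC barcodes: 23.8% to 27.7% of them carried at least 2 markers of pericytes, smooth muscle, fibroblasts, leukocytes or platelets, or at least 3 of epithelium. These are the barcodes called below those with RNA of other cell types, and RNA of red cells and melanoma cells did not enter this rule. Melanoma markers summed to 1.67, 14.7 and 1.34 CPM, red cell markers to 3249, 2119 and 829 CPM, and the genes read as ribosomal RNA took 0.506%, 0.631% and 2.13% of EC UMIs. Values without barcodes with RNA of other cell types are given beside the results, and the part of the red cell and melanoma RNA was not tested.

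Levels below are CPM over all EC barcodes of a library, and a difference is the log2 ratio of 2 such levels. Brackets hold exact 95% intervals (Poisson for a level, conditional binomial for a ratio, Clopper-Pearson for a share), which cover counting error only and not the spread between mice. A gene is called higher or lower here where its ratio passed 1.5-fold with an interval that left out no difference. Levels of different genes are not compared as amounts of mRNA, since gene length and capture were not corrected, and where the genes with the most UMIs of a list are named it is because their counts are the most precise. In bulk sums of this kind, fewer cells that express a gene and less RNA per cell cannot be told apart. The 2 comparisons with the control share that library, and their values are given side by side.

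At 6 h all 6 genes had ratios under 0 on the log2 scale, with a median of −0.18. Over all 12982 genes that averaged 1 CPM or more the median was −0.02, and 46.4% of them were above 0. The ligand Angpt1 was the only member past 1.5-fold, in the lower direction, where 2.51% of all genes were lower and 3.17% were higher. At 30 h 5 of 6 genes were under 0 against the same control, with a median of −0.27. All genes had a median of −0.06, and 43.6% of them were above 0. None passed 1.5-fold, where 7.13% of all genes were higher and 6.38% lower, and Tie1 missed it narrowly. Between the 2 melanoma libraries Tie1 alone passed, higher at 30 h, in a comparison in which 7.74% of all genes were higher and 6.75% lower.

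**Figure D1:**
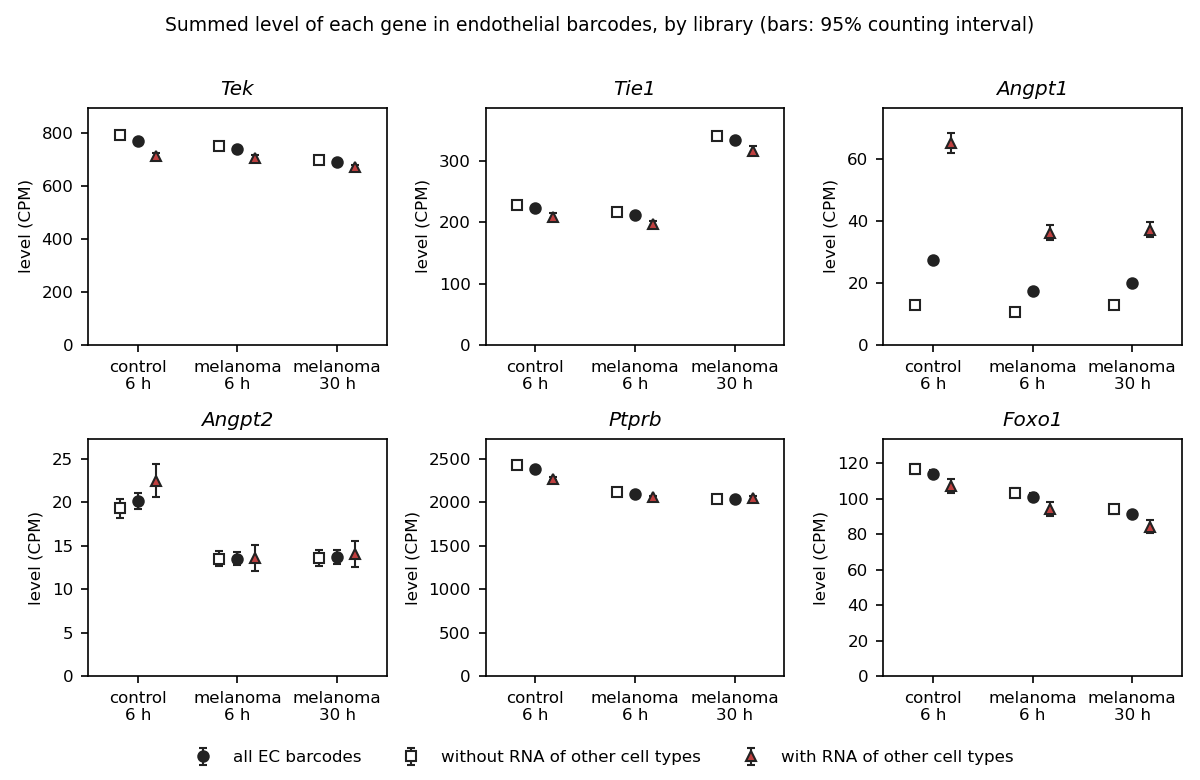
Level of each of the 6 genes in CPM in EC barcodes of the control, 6 h and 30 h libraries, 1 panel per gene with its own axis. Circles are all EC barcodes, squares those without RNA of other cell types and triangles those with it. Points are single libraries and bars are exact 95% Poisson intervals of counting error. Over all EC barcodes Tie1 stood at 334 CPM at 30 h against 223 and 211 CPM. Angpt1 and Angpt2 were highest there in the control, and Tek, Ptprb and Foxo1 were spread less.

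Tek encodes the TIE2 receptor. It was read at 772 CPM in the control [766, 778], 742 CPM at 6 h and 691 CPM at 30 h, from 56308 to 70120 UMIs per library. The control was the highest and the 30 h library the lowest, and the intervals did not overlap. The log2 ratio was −0.06 at 6 h and −0.16 at 30 h [−0.18, −0.14], both far inside 1.5-fold. Among barcodes thinned to 4000 UMIs each, a step that removes differences in depth and left out 1775 barcodes of the control, 84.3%, 83.2% and 81.5% held at least 1 Tek UMI (86.5%, 86.3% and 85.5% before thinning). Free RNA of these genes was present: in empty droplets, barcodes of 1 to 100 UMIs, Tek stood at 470, 511 and 426 CPM. Barcodes of other cell types had fewer than 2 UMIs of Pecam1 plus Cdh5 and at least 3 markers of their type. In them Tek stood at 24.1 to 29.5 CPM with fibroblast markers and 59.4 to 71.5 CPM with pericyte markers. It stood at 18.4 to 43.1 CPM with epithelial markers and 6.59 to 16.4 CPM with leukocyte markers. At 2000 UMIs 0 of 10, 2 of 27 and 0 of 18 leukocyte barcodes held a Tek UMI, against 67.7%, 67.0% and 64.1% of ECs. These leukocyte barcodes held no UMI of Pecam1 or Cdh5.

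Tie1, the companion receptor, took another course. Its level was 223 CPM in the control [220, 226], 211 CPM at 6 h [208, 214] and 334 CPM at 30 h [330, 338]. The 30 h library was well above the other pair, which lay close together. The log2 ratio at 6 h was −0.08 [−0.11, −0.05]. At 30 h it was 0.58 [0.56, 0.61], just short of the fold used here. Against the 6 h library it was 0.66 [0.63, 0.69], a ratio of 1.58. The share of barcodes with a Tie1 UMI at 4000 UMIs was 58.3%, 55.8% and 72.7% (76.0%, 74.3% and 86.3% before thinning), and the share with at least 3 UMIs was 7.10%, 6.66% and 17.4%. The difference was thus present in the number of positive barcodes and in the UMIs per barcode. Empty droplets moved in the same way, with 238, 206 and 388 CPM of Tie1. The summed pan-endothelial markers were also highest at 30 h, but were not lower at 6 h than in the control. Among these markers Kdr went from 450 CPM in the control to 724 CPM at 30 h and Pecam1 from 1097 to 1237 CPM. Erg alone was lower at 30 h, from 304 to 253 CPM. The part of free RNA or of a general difference in EC genes in the result was not tested. With barcodes that carried RNA of other cell types left out, the ratio at 30 h was again 0.58.

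Angpt1 encodes the ligand that activates TIE2. It was read at 27.5 CPM in the control, 17.6 CPM at 6 h and 20.1 CPM at 30 h, from 1537 to 2497 UMIs. The control was the highest, and the log2 ratio was −0.64 at 6 h [−0.74, −0.55] and −0.45 at 30 h [−0.55, −0.36]. In empty droplets Angpt1 stood at 25.9, 23.6 and 30.9 CPM, above its EC level in both melanoma libraries and highest at 30 h. The part of free RNA in the Angpt1 levels was not tested. Few barcodes held Angpt1, 5.98%, 4.60% and 5.78% at 4000 UMIs (9.26%, 8.07% and 9.94% before thinning), and these were unlike the average EC. Barcodes with RNA of other cell types held 65.8% of the Angpt1 UMIs in the control and 55.1% and 55.0% in the melanoma libraries, although they made up 24.6%, 23.8% and 27.7% of the ECs. The 77 control barcodes with at least 5 Angpt1 UMIs held 44.0% of its UMIs, and the 48 and 46 such barcodes of the 6 h and 30 h libraries held 27.7% and 24.8%.

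Angpt1 levels were also read beside markers of mesenchymal cells. EC barcodes with at least 2 fibroblast markers held Angpt1 at 306, 136 and 107 CPM (control, 6 h, 30 h), those with smooth muscle markers 233, 120 and 121 CPM, and those with pericyte markers 116, 57.3 and 53.8 CPM. These groups can share barcodes, and in all of them the control was the highest. Fibroblasts with fewer than 2 UMIs of Pecam1 plus Cdh5 held 861, 678 and 908 CPM, from 54, 47 and 33 barcodes. Such pericytes held 967, 1120 and 754 CPM, from 39, 24 and 15 barcodes. In ECs without RNA of another cell type the level of Angpt1 was 13.0, 10.8 and 12.8 CPM, with log2 ratios of −0.27 at 6 h and −0.02 at 30 h, neither past 1.5-fold. The lower Angpt1 level at 6 h therefore did not pass the fold without those barcodes. Over all ECs pericyte markers summed to 120, 91.4 and 109 CPM, in the order of the Angpt1 levels. Single pericyte markers did not all follow it. Gucy1a1, Cox4i2, Pdgfrb and Notch3 had this order. Higd1b (14.8, 12.9 and 17.2 CPM), Kcnj8 and Cspg4 were highest at 30 h, and Trpc6 was lowest there (13.2, 8.56 and 7.61 CPM). The other sums had other orders. Fibroblast markers stood at 61.4, 49.9 and 88.0 CPM, with the 30 h library highest. Smooth muscle markers stood at 43.0, 50.5 and 51.2 CPM, with the control lowest.

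**Figure D2:**
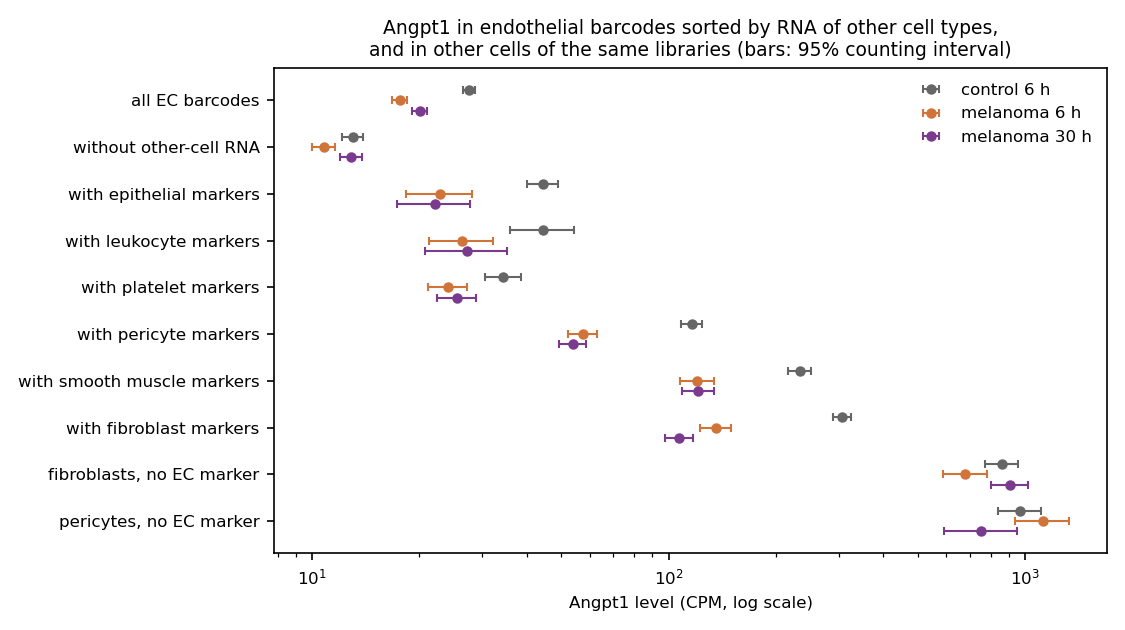
Level of Angpt1 in CPM in EC barcodes without and with RNA of other cell types, and in barcodes of other cell types, for the 3 libraries, with exact 95% Poisson intervals. EC barcodes without other RNA stood at 10.8 to 13.0 CPM, those with fibroblast markers at 107 to 306 CPM, and fibroblasts that were not ECs at 678 to 908 CPM. Barcodes labelled as having no EC marker held fewer than 2 UMIs of Pecam1 plus Cdh5.

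Angpt2 encodes the ligand that ECs store and release. It stood at 20.1 CPM in the control [19.2, 21.1], 13.5 CPM at 6 h [12.7, 14.3] and 13.7 CPM at 30 h [12.9, 14.5]. The control was above both melanoma libraries, whose intervals overlapped. The log2 ratio was −0.58 [−0.68, −0.47] at 6 h and −0.56 [−0.67, −0.45] at 30 h, both just under 1.5-fold. The share of barcodes with a UMI at 4000 UMIs was 7.18%, 4.92% and 4.90% (12.4%, 8.65% and 9.13% before thinning). In empty droplets Angpt2 stood at 13.8, 12.2 and 16.1 CPM, highest at 30 h and there above the EC level. The part of free RNA in the Angpt2 levels was not tested. Angpt2 was read in 1388, 915 and 847 barcodes, and those with at least 5 UMIs, 15, 8 and 9 in the 3 libraries, held 4.70%, 3.90% and 6.37% of it. Without barcodes that carried other RNA the ratios were −0.52 and −0.51. In barcodes with such RNA they were −0.73 and −0.68, past the fold. Barcodes of other cell types below the EC limit of Pecam1 plus Cdh5 also held Angpt2. Its level was 205, 93.3 and 132 CPM with pericyte markers, from 43, 11 and 13 UMIs. With fibroblast markers it was 89.3, 24.1 and 49.1 CPM, from 36, 7 and 15 UMIs. It was 0 to 16.4 CPM with leukocyte markers and 0 to 3.92 CPM with epithelial markers. The part of such RNA in the EC levels was not tested. Mcph1, the gene around Angpt2, stood at 14.7, 14.0 and 12.9 CPM.

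Ptprb, the phosphatase that acts on TIE2, was read at 2379 CPM in the control, 2097 CPM at 6 h and 2038 CPM at 30 h. The control was the highest, with log2 ratios of −0.18 [−0.19, −0.17] and −0.22 [−0.23, −0.21]. Between the melanoma libraries the ratio was −0.04, and scaling by the trimmed mean of M values (TMM) turned it to 0.01. At 4000 UMIs 91.9%, 91.7% and 89.4% of barcodes held Ptprb (94.3%, 93.4% and 92.0% before thinning). Foxo1 stood at 114, 101 and 91.1 CPM in the same order, with log2 ratios of −0.17 [−0.22, −0.13] at 6 h and −0.32 [−0.37, −0.28] at 30 h. Its share of barcodes was 34.3%, 31.7% and 28.1% (50.3%, 47.2% and 45.3% before thinning). Neither gene passed 1.5-fold in any of the 3 comparisons, while both were ordered from the control down to 30 h like Tek.

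Few melanoma cells were read. The 6 h library held 12 barcodes with at least 4 melanoma markers and fewer than 2 UMIs of Pecam1 plus Cdh5. They held 4 UMIs of Ptprb (39.5 CPM, where empty droplets of this library held 1374 CPM) and none of Tek, Tie1, Angpt1, Angpt2 or Foxo1. For the latter genes this leaves room for up to 36.5 CPM each. That limit lies below the EC levels of Tek, Tie1 and Foxo1 in this library and above those of Angpt1 and Angpt2, for which nothing can be said. The control and 30 h libraries held no such barcode. By the labels sorted melanoma cells went into the 6 h library, while the methods describe their collection at both times, so the sort and the lung cannot be told apart in these numbers. Leukocyte barcodes with fewer than 2 UMIs of Pecam1 plus Cdh5 had 57.5, 56.3 and 79.1 CPM of Foxo1, from 19, 41 and 34 barcodes. Lymphocytes also use this gene.

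The ECs were then divided by marker genes into classes of vessel. A barcode was placed in a class with UMIs of at least 3 of its 8 markers. This gave gCap-like (general capillary), aCap-like (the capillary ECs of the gas exchange surface), artery-like, vein-like and LEC-like (lymphatic) barcodes. They are called by these names without the ending from here on. A gCap barcode could hold at most 1 marker of any other class. The other classes could hold at most 2 markers of each other, with no limit on gCap markers. An aCap barcode could therefore also carry gCap markers, which bears on the ratios of aCap to gCap. The leading genes of each class by fold held 2 to 6 of its own markers among the first 10 and 0 of any other class. Since the classes were gated on these markers, this describes the gate and does not test the names. gCap held 4630, 4743 and 3353 barcodes in the control, 6 h and 30 h libraries, aCap 2603, 2197 and 2492, artery 265, 240 and 309, vein 788, 599 and 597, and 2900, 2763 and 2489 remained unassigned. LEC held 45, 41 and 38 barcodes, under the 50 asked for, so its values enter no comparison between libraries and its place beside the other classes is a description only. Of the aCap barcodes 27.1% to 29.6% had just 3 of the 8 markers, and of the artery barcodes 37.9% to 52.1%. Values with a stricter gate of 6 markers are given beside the results that they move most. For arteries this gate left 26, 18 and 69 barcodes, under 50 in both 6 h libraries, so its artery values are a description only. Means over classes are over the 3 libraries of different treatment (± SD, n = 3 libraries) and serve to order the classes only.

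Tek was highest in arteries (944 ± 48.3 CPM) and gCap (932 ± 45.7 CPM), which did not differ beyond their spread. Veins followed at 730 ± 12.0 CPM, then aCap at 398 ± 15.3 CPM and LEC at 249 ± 25.7 CPM, and with the stricter gate aCap came below LEC. The level in aCap was 415, 392 and 387 CPM (control, 6 h, 30 h) against 983, 917 and 896 CPM in gCap. The mean log2 ratio of aCap to gCap was −1.23 ± 0.02 (SD, n = 3 libraries) and every library showed the lower level. With the stricter gate aCap held 144, 128 and 150 CPM and the mean ratio was −2.73, against −1.95 for LEC. The gap between the 2 kinds of capillary EC was thus wider where more aCap markers were asked for.

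Ptprb was ordered much like its substrate. Arteries were highest at 3364 ± 203 CPM, and veins (2801 ± 302 CPM) and gCap (2603 ± 203 CPM) overlapped in their spread, although veins were above gCap in each library. The level in aCap was 1247, 1109 and 1080 CPM, a mean log2 ratio to gCap of −1.18 ± 0.03, or −2.82 with the stricter gate, where it was 415, 356 and 338 CPM. LEC held 540 ± 29.2 CPM, below aCap with the main gate and above it with the stricter one. Both genes of the TIE2 and VE-PTP pair were therefore lower in aCap than in gCap by more than 1.5-fold in all 3 libraries.

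Tie1 differed less between the 4 blood vessel classes than between the libraries. These classes averaged 281 ± 64.8 CPM in arteries, 275 ± 77.2 CPM in gCap, 271 ± 64.3 CPM in veins and 222 ± 61.1 CPM in aCap, with spreads that overlapped throughout. Within each library aCap was the lowest of the 4, at 191, 183 and 293 CPM, and its mean log2 ratio to gCap was −0.31 ± 0.03. LEC held 301, 330 and 363 CPM.

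Foxo1 was higher in the larger vessels than in capillaries. Arteries held 209, 157 and 171 CPM and veins 162, 147 and 162 CPM, against 124, 108 and 96.4 CPM in gCap and 71.6, 63.0 and 53.6 CPM in aCap. The mean log2 ratio to gCap was 0.71 ± 0.15 for arteries, 0.53 ± 0.19 for veins and −0.80 ± 0.04 for aCap, with the same sign in all 3 libraries. With the stricter gate the mean ratio was −1.54 for aCap, from 42.3, 39.4 and 31.2 CPM, and ran from 0.92 to 1.28 for the few artery barcodes, both further from gCap. Arteries (179 ± 27.2 CPM) and veins (157 ± 8.46 CPM) overlapped in their spread, as did LEC at 181 ± 29.5 CPM.

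The 2 ligands had their own places. Angpt2 was by far highest in LEC, at 163, 117 and 47.8 CPM, where it is a known lymphatic product, and these levels rest on 38 to 45 barcodes. Among the blood vessel classes veins led in the control, at 29.5 CPM against 20.1 CPM in gCap. With the stricter gate they held 32.1, 13.6 and 10.6 CPM, above gCap in the control and below it in both melanoma libraries. In the melanoma libraries neither veins nor arteries differed from gCap beyond counting error: veins stood at 16.6 and 14.6 CPM, gCap at 14.4 and 14.2 CPM and arteries at 10.3 and 17.9 CPM. The means of veins (20.2 ± 8.12 CPM), gCap (16.2 ± 3.32 CPM), arteries (14.4 ± 3.83 CPM) and aCap (11.4 ± 3.11 CPM) overlapped in their spread over the libraries. Within each library aCap was below gCap, with a mean log2 ratio of −0.53 ± 0.17, and with the stricter gate aCap held 7.27, 4.53 and 7.33 CPM. Angpt1 was highest in arteries, at 41.4, 38.1 and 32.7 CPM. Its mean log2 ratio to gCap was 1.05 ± 0.40. With the stricter gate it was 1.69, 3.24 and 1.11 in the control, 6 h and 30 h libraries, from only 17, 22 and 33 UMIs. In barcodes without RNA of other cells arteries held 37.6, 32.5 and 27.2 CPM, gCap held 16.4, 12.7 and 17.1 CPM, aCap 8.29, 6.98 and 10.0 CPM and veins 3.63, 4.06 and 3.89 CPM. With all barcodes included aCap stood at 35.0, 19.3 and 19.6 CPM, above gCap in the control (19.5 CPM) and at 6 h (14.0 CPM). The order of these 2 classes for Angpt1 turned in barcodes without other RNA and also under the stricter gate, where aCap held 10.5, 8.51 and 8.43 CPM.

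**Figure D3:**
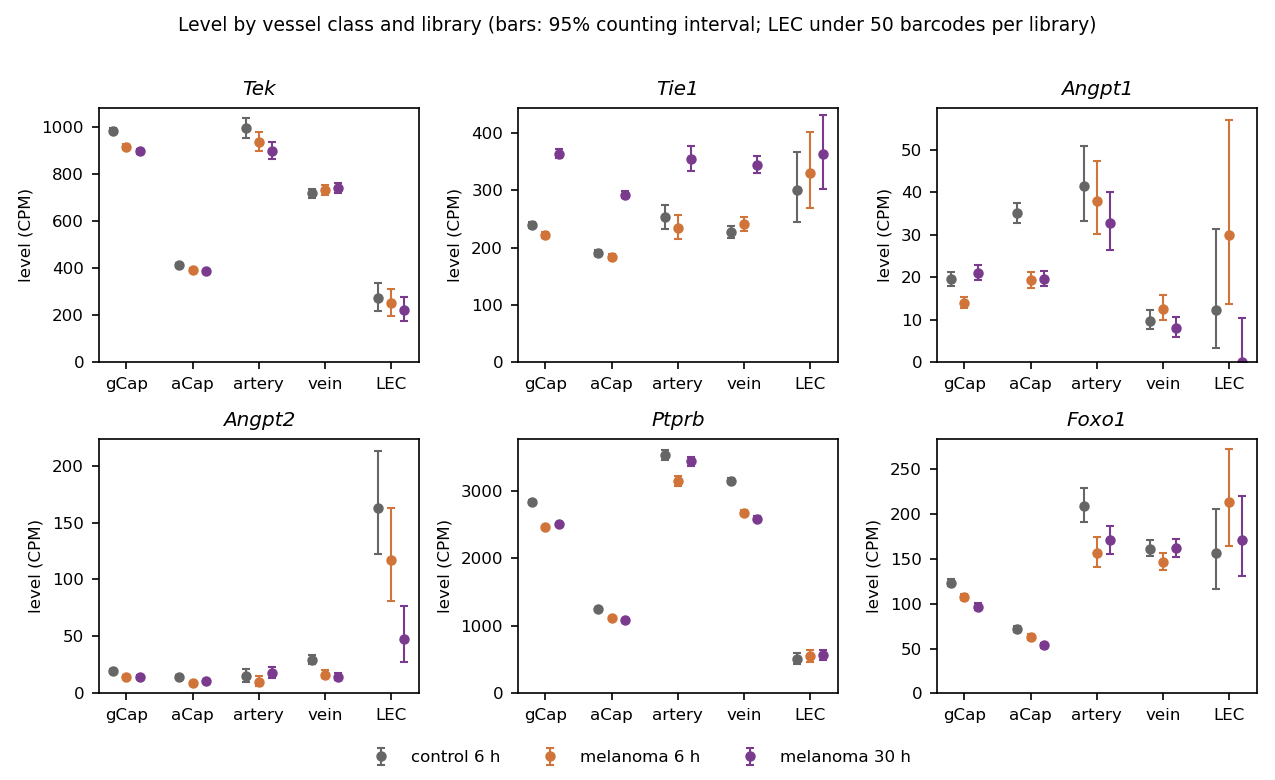
Level of each gene in CPM by marker-gated EC class and library, with exact 95% Poisson intervals, 1 panel per gene with its own axis. Tek and Ptprb were lowest in aCap among the blood vessel classes in all 3 libraries, Foxo1 was higher in arteries and veins than in gCap and aCap, Angpt2 was highest in LEC, and Tie1 was highest in the 30 h library in the 4 blood vessel classes.

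The higher Tie1 level at 30 h was present in each blood vessel class. Against the control the log2 ratio was 0.60 [0.56, 0.65] in gCap, from 239 to 364 CPM. It was 0.62 [0.57, 0.67] in aCap and 0.60 [0.51, 0.70] in veins, from 227 to 344 CPM, all past 1.5-fold. The share of all genes past 1.5-fold was counted over all ECs only. Calls within a class, here and below, therefore stand beside no such share. The call in veins was lost with 6 markers asked for and without RNA of other cells (both 0.58), and in aCap the alternatives ran from 0.54 to 0.64. In arteries it was 0.49 [0.34, 0.64], from 253 to 355 CPM, short of the fold, and the interval included the values of the other classes. At 6 h the ratios were between −0.11 and 0.09 in these 4 classes. The ratio within gCap, aCap and veins was as large as the ratio over all ECs.

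In veins Angpt2 was lower in both melanoma libraries. The level there was 29.5 CPM in the control, 16.6 CPM at 6 h and 14.6 CPM at 30 h, with log2 ratios of −0.83 [−1.19, −0.49] and −1.02 [−1.39, −0.66], both past 1.5-fold. With RNA of other cells left out they were −0.88 and −0.98, and with 6 vein markers asked for they were −1.24 and −1.60. In aCap the ratio at 6 h was −0.76 [−1.02, −0.51], past the fold, and −0.47 at 30 h, which was not. Over the alternatives it ran from −1.38, with barcodes thinned to 4000 UMIs before gating, to −0.61 at 6 h. With the stricter gate it was −0.68 at 6 h, again past the fold, and 0.01 [−0.38, 0.41] at 30 h. In gCap the ratios were −0.48 and −0.50, short of the fold, and in arteries the intervals included no difference. The intervals of veins and gCap overlapped at 6 h and at 30 h. With 6 markers they did not, at [−1.72, −0.79] and [−2.11, −1.11] in veins against [−0.65, −0.28] and [−0.71, −0.31] in gCap, and the difference between the classes was not tested.

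Within aCap Angpt1 was lower in both melanoma libraries, with log2 ratios of −0.86 [−1.03, −0.69] at 6 h and −0.83 [−0.99, −0.68] at 30 h. Without RNA of other cells the ratio was −0.25 at 6 h and 0.27 at 30 h, the opposite direction, and with the stricter gate −0.30 and −0.32. In gCap Angpt1 was −0.48 at 6 h and 0.11 at 30 h, in arteries −0.12 and −0.34 and in veins 0.35 and −0.27, with intervals that included no difference in arteries and veins. In veins with 6 markers, from 44, 14 and 11 UMIs, Angpt1 was lower in both melanoma libraries, at −1.29 [−2.27, −0.40] and −1.76 [−2.86, −0.78]. The direction at 6 h thus turned with the gate. In veins without RNA of other cells the ratios were 0.16 [−0.79, 1.10] at 6 h and 0.10 [−0.87, 1.05] at 30 h. Both of these intervals included no difference. Tek, Ptprb and Foxo1 passed 1.5-fold in no class against the control: the ratios ranged from −0.15 to 0.05 for Tek, from −0.28 to −0.04 for Ptprb and from −0.42 to 0.00 for Foxo1. In veins Tek stood at 718, 732 and 742 CPM, with intervals of both ratios that included no difference.

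**Figure D4:**
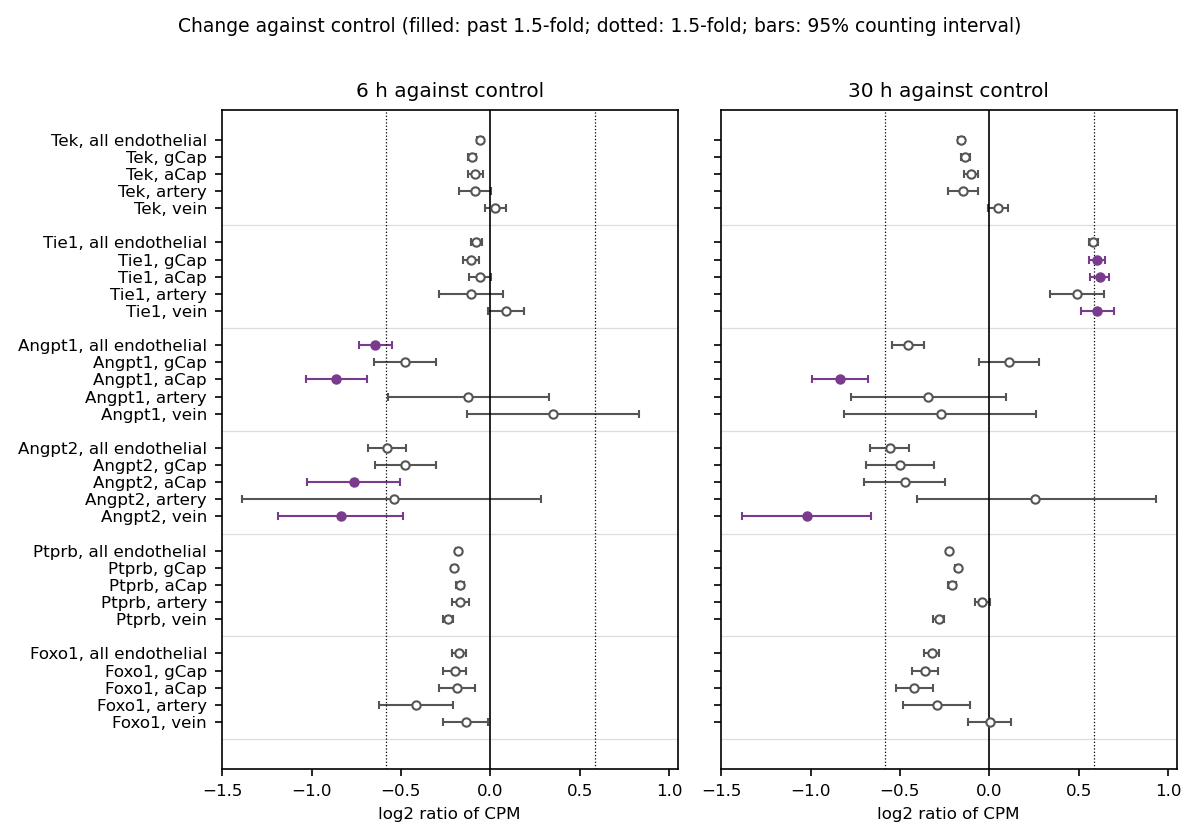
Log2 ratio of each gene to the control at 6 h and at 30 h, over all ECs and within gCap, aCap, artery and vein, with exact 95% conditional binomial intervals and lines at 1.5-fold. Tie1 at 30 h lay at 0.49 to 0.62 in all 4 classes, and Angpt2 in veins lay at −0.83 and −1.02.

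The genes whose levels ran most like each member were sought over the 15 sums of 5 classes by 3 libraries, among 10515 genes with at least 5 CPM on average. These points share libraries and class gates, so the coefficients only describe the levels. For Tek the closest gene was Ptprb (Pearson r 0.97), followed by Ccdc71l, Plvap, Adgrl4 and Asap2 (r 0.95 to 0.97). Plvap encodes the diaphragm protein of fenestrae and caveolae in ECs. For Ptprb they were Skap2 (r 0.98), Hmcn1, which is also a gCap gate marker, Adgrl4, Tek and Pde3a (r 0.97 to 0.98). Tek and Ptprb thus each stood among the 5 genes nearest to the other. At 4000 UMIs 82.6% of control barcodes held both, where the product of their shares was 77.4%. These shares pool the classes. Tek was held by 56.6% of aCap and 95.6% of gCap barcodes of the control, and Ptprb by 70.1% and 99.8%. Such a mix of classes can by itself put the joint share above the product, and pairing within a class was not tested.

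The other members had different neighbours. Tie1 was nearest to Mrpl23, S100a16, Suclg2, 4930556M19Rik and Nenf (r 0.92 to 0.95), and its coefficient with Tek was −0.17. Foxo1 was nearest to Lepr, the leptin receptor gene, then St3gal4, Pik3c2a, Meis2 and Fzd6 (r 0.92 to 0.97). Angpt2 was nearest to Xpo6, Gm10605, Ddb2, Prkag2 and Chsy3 (r 0.94 to 0.96), and its highest points were the LEC sums, which hold the fewest UMIs. Angpt1 was nearest to Vps37b, Lsg1, Mthfd1l, Ap3m2 and Trim23 (r 0.92 to 0.94).

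The rest of the pathway was read in 9 lists, counted by the same rule and over genes that averaged 1 CPM or more. Of all such genes 3.17% were higher and 2.51% lower at 6 h, and 7.13% higher and 6.38% lower at 30 h, and each count below stands beside these shares. Of the ligand and receptor partners 7 of 8 were measured, Angpt4 falling under 1 CPM. None passed 1.5-fold at 6 h and 1 was lower at 30 h, Itgav, an integrin subunit, at 55.4, 48.2 and 34.1 CPM. The partners read with the most UMIs were Cdh5, the VE-cadherin gene (1636, 1583 and 1788 CPM), Itgb1 (632, 711 and 792 CPM) and Jup (381, 377 and 466 CPM), and the list's median log2 ratio was −0.02 at 6 h and −0.17 at 30 h.

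Of 22 signal carriers downstream of TIE2 20 were measured, with 0 past the fold at 6 h and 2 lower at 30 h, where 6.38% of all genes were lower. Among them was Tnip2, which encodes a TIE2-binding inhibitor of NF-kappaB, at 34.1, 36.3 and 21.9 CPM (log2 ratio −0.64 at 30 h). The most UMIs were read for the small GTPases Rhoa (731, 798 and 821 CPM) and Rap1a (650, 671 and 634 CPM) and the kinase Mapk3 (260, 266 and 350 CPM). The list's medians were 0.05 and −0.16. The 3 proteases listed for shedding, which can cut TIE receptors from the surface, had no member past the fold and medians of 0.25 and 0.07: Adam10 stood at 129, 131 and 120 CPM, Adam17 at 47.6, 58.4 and 49.8 CPM and Mmp14 at 24.2, 28.8 and 29.5 CPM.

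Genes that FOXO factors are known to regulate were all measured. At 6 h 1 of 19 was higher, Bcl6, at 13.6, 35.4 and 18.4 CPM, and 2 were lower, Txnip, an inhibitor of glucose uptake, at 729, 407 and 774 CPM, and Fbxo32, at 18.5, 11.5 and 7.63 CPM. At 30 h none was higher and 5 of 19 were lower, where 7.13% and 6.38% of all genes were, among them the growth arrest gene Gadd45a (20.3, 22.2 and 9.30 CPM), Pik3ip1 (52.2, 36.6 and 32.9 CPM) and Fbxo32. The other two were Ccng2 (35.3, 29.5 and 22.3 CPM) and Cited2 (27.3, 39.6 and 17.1 CPM). Klhl24 (133, 113 and 90.5 CPM) and the cell cycle inhibitor gene Cdkn1b (108, 94.5 and 77.7 CPM) were with Txnip the targets read with the most UMIs, and did not pass. The medians were −0.19 and −0.43, where all genes had −0.02 and −0.06, and many of these genes answer to other factors as well. Of the other FOXO genes Foxo3 was read at 53.7, 41.7 and 41.1 CPM and Foxo4 at 10.9, 9.73 and 9.94 CPM, neither past the fold (medians −0.27 and −0.26), and Foxo6 fell under 1 CPM.

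Of 16 factors known to act upstream of these genes 15 were measured. At 6 h Vegfa alone was higher, at 192, 367 and 252 CPM. At 30 h Gata3 (69.6, 70.1 and 35.4 CPM) and Hhex (96.4, 77.6 and 40.6 CPM), both transcription factor genes, were lower. The most UMIs were read for Epas1, a hypoxia-inducible factor gene (2605, 2484 and 2784 CPM), and the shear stress factor genes Klf2 (1638, 1702 and 2039 CPM) and Klf4 (921, 1196 and 1149 CPM). The medians were −0.07 and −0.14. The ETS family genes of the list did not pass the fold. Ets1 stood at 353, 336 and 374 CPM, Fli1 at 208, 207 and 226 CPM and Elk3 at 301, 315 and 363 CPM. Erg stood at 304, 275 and 253 CPM, Elf1 at 198, 182 and 142 CPM and Ets2 at 283, 235 and 256 CPM. A link between these levels and the level of Tie1 was not tested.

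Weibel-Palade bodies are the granules from which ANGPT2 is released. Of 11 listed genes 10 were measured. At 6 h Selp, the P-selectin gene, was higher, and Rab27a and Myrip, which tether the granules, were lower. At 30 h Selp, Myrip and Edn1 were lower. Selp stood at 13.9, 26.9 and 4.71 CPM, Rab27a at 91.5, 58.6 and 64.8 CPM, Myrip at 87.9, 51.8 and 54.1 CPM and Edn1, the endothelin gene, at 316, 258 and 203 CPM. Vwf, the main cargo, at 299, 230 and 282 CPM, did not pass, and the medians were −0.10 and −0.19. Rab27a and Myrip had their highest level in the control, as did Angpt2, and Selp did not.

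Heat shock and immediate early genes, which are known to answer to the release of cells from tissue at warm temperature, also differed between the libraries. All 8 heat shock genes were higher at 6 h (median 1.09), led by Hspa1b (17.2, 111 and 10.4 CPM), Hspa1a (18.1, 91.5 and 13.3 CPM) and Hsph1 (12.9, 56.4 and 20.9 CPM), and the most UMIs were read for Hspa8 (754, 1573 and 962 CPM), Hsp90aa1 (199, 434 and 198 CPM) and Hspe1 (89.3, 164 and 123 CPM). At 30 h Hsph1 was higher and Hspa1b lower, with a median of 0.17. Of 10 immediate early genes 4 were higher at 6 h, Fos (1550, 2339 and 887 CPM), Egr1 (537, 968 and 354 CPM), Atf3 (180, 550 and 128 CPM) and Ier3 (881, 1353 and 634 CPM), with a median of 0.53. At 30 h Fos, Egr1, Fosb (335, 436 and 182 CPM) and Zfp36 (380, 502 and 247 CPM) were lower, with a median of −0.48. Jun (2721, 2789 and 2025 CPM) and Junb (1180, 1759 and 871 CPM) had with Fos the most UMIs and did not pass against the control. The part of these responses in the levels of the angiopoietin and Tie genes was not tested.

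**Figure D5:**
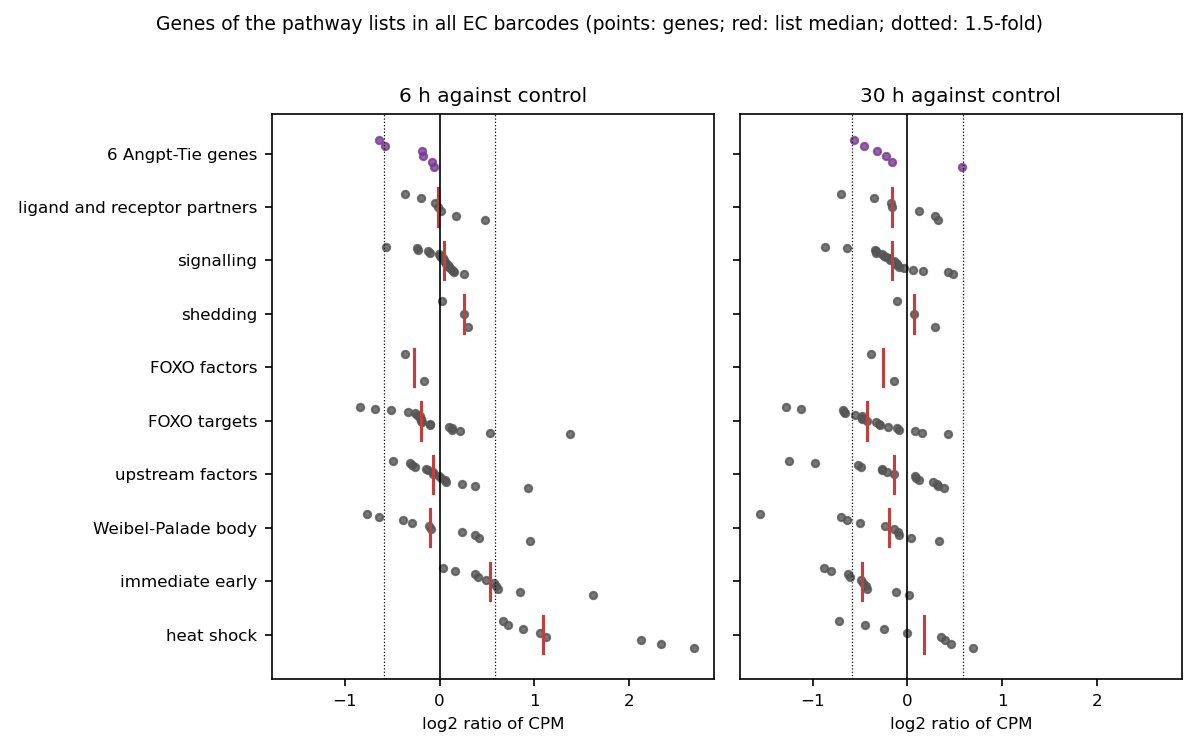
Log2 ratio to the control at 6 h and at 30 h of every measured gene of the 9 lists and of the 6 members, with the median of each list as a bar and lines at 1.5-fold. The heat shock list lay at a median of 1.09 at 6 h and 0.17 at 30 h, and the FOXO targets at −0.19 and −0.43.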

How the data were processed

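Counts were used as deposited: the authors' droplet matrices of whole UMI counts per gene and barcode, not filtered for cells, made per the labels with Cell Ranger 7.2.0 on mm10, while the methods name an older release. Whether intronic reads were counted is not given in the sources used here. UMIs were summed over EC barcodes, per library and class, and divided by the summed UMIs as CPM. EC and class limits are given with the results. No doublets were removed in the main values. Scrublet (scanpy 1.11.5) marked 7.63% to 9.42% of ECs. Intervals were computed with scipy 1.17.1 and TMM factors with edgeR 4.0.16, and the ratios were checked on simulated counts. Alternatives covered the cell filter, scaling, doublets, RNA of other cells, thinning, the floor on low genes and the class gate. The members and lists were chosen with earlier results of these data known. Named genes were the 6 members, every list gene past 1.5-fold against the control (at most 6 per list and direction, by size), the 3 most abundant per list, and the 5 genes of highest correlation with each member. Of the genes this rule gives, 2 are not reported here. The ETS family genes were named beyond this rule, after their values were seen. Gene symbols were matched to GENCODE M21 positions for 32235 of 32285 identifiers (99.8%), and 3 of the 6 members had a RefSeq promoter entry.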

Additional observations from a re-analysis of the deposited data

Results flagged for a closer look

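Empty droplets, barcodes of 1 to 100 UMIs that entered none of the levels of ECs, held Tie1 at 388 CPM in the 30 h library against 238 CPM in the control library and 206 CPM at 6 h. This stands out as a signal outside the cells measured and above the control. Tie1 was at 334, 223 and 211 CPM in the EC barcodes of the 30 h, control and 6 h libraries. The part of free RNA in the EC levels was not tested.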

How the results depend on the processing

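The number of members past 1.5-fold at 6 h against the control was 1 and became 0 without barcodes with RNA of other cell types, with that and doublets left out (chosen after seeing the data, as was the gate of 6 markers), and thinned to 4000 UMIs. With the mean of each barcode's own CPM it stayed 1, with Angpt2 past the fold in place of Angpt1, which thus passed in 10 of 14 alternatives. At 30 h it was 0 and became 1 in 6 settings: Angpt1 with a gate of 300 genes or more and no ceiling, Angpt2 with the mean of each barcode's own CPM, and Tie1 with TMM, with median-of-ratios scaling, with totals free of mitochondrial and rRNA-like genes, and thinned to 4000 UMIs. Tie1 at 30 h ran from 0.57 to 0.65 on the log2 scale over 14 alternatives against the control and from 0.64 to 0.71 against 6 h, where it passed in all 14. Angpt1 at 6 h ran from −0.65 to −0.24 and Angpt2 from −0.60 to −0.49. In aCap, Angpt1 at 30 h against the control turned to 0.27 without RNA of other cells. Over all genes, 737, 1754 and 1881 passed at 6 h, at 30 h and between the melanoma libraries. With a floor of 5 CPM these were 348, 1003 and 1067, and with no floor 1645, 3252 and 3369, since fewer or more genes are counted. Adding 1 CPM gave 434 at 6 h. No paired analysis was possible because each treatment had 1 library, and for the same reason no replicate could be left out. Depth limits Angpt1 and Angpt2 in arteries, veins and LEC, where few UMIs were read. Without replicates, no value separates treatment from mice, sort or library.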
